A study of Mus musculus with 18 samples.

Results

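A set of 9 genes of the NODAL signalling pathway was followed through 2 stages of mouse gastrulation in single-cell RNA sequencing libraries. They were the ligand genes Nodal and Gdf3, the co-receptor gene Tdgf1, the antagonist genes Lefty1 and Lefty2, the transcription factor gene Foxh1, and the feedback genes Smad7, Pmepa1 and Skil. They were chosen by name, as 9 of the 22997 nuclear genes in the files, and all 9 were measured. All embryos were wild type C57BL/6. At embryonic day (E) 6.75, the extraembryonic part was cut off, embryos were dissociated one by one, cells were picked by hand, and 6 libraries were made with CEL-Seq2. At E7.5, embryos were cut under the chorion, which kept extraembryonic mesoderm, those of 1 or 2 litters were pooled, cells were sorted by flow cytometry, and 12 libraries were made with mCEL-Seq2, its automated small-volume form. Each library held 96 cell barcodes. Stage, way of collecting cells and protocol therefore changed together and cannot be told apart. The series title names the separation of mesoderm and endoderm in space and time as its subject.

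NODAL is a secreted ligand of the TGF-beta family that signals through activin receptors and SMAD2 and SMAD3, and it needs the membrane-bound co-receptor encoded by Tdgf1 (CRIPTO). In the gastrulating mouse embryo it is required for the primitive streak and for mesoderm and endoderm, and several of its own targets act on it: Lefty1 and Lefty2 encode secreted antagonists, while Smad7, Pmepa1 and Skil encode proteins that restrain SMAD signalling within the cell. FOXH1 is a forkhead factor that brings activated SMAD complexes to DNA, and GDF3 is a related ligand that can use the same co-receptor. Eomes and T encode transcription factors active in the streak, Mesp1 marks early mesoderm, and Foxa2 marks definitive endoderm, axial mesoderm and visceral endoderm.

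The sequences just upstream of the ligand gene Nodal and the co-receptor gene Tdgf1 are shown, as the 2 of the 9 members that the RefSeq promoter table (GRCm38.p6) matched. Each window is the 250 bases before the annotated start, on the gene's own strand, chr10:61417722-61417971 (plus strand) for Nodal and chr9:110946159-110946408 (minus strand) for Tdgf1. Capitals mark CAGAC, a SMAD motif, searched together with its reverse complement GTCTG.
Nodal: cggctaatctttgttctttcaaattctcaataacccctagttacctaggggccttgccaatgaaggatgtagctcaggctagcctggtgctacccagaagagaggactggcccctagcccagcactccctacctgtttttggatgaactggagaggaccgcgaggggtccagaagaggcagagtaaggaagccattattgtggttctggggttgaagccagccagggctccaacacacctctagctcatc
Tdgf1: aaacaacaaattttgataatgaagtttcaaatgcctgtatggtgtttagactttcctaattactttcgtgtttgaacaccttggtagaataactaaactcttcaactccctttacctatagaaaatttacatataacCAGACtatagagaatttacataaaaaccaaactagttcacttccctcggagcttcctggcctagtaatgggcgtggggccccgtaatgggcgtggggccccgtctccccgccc
The Tdgf1 window held 1 match and the Nodal window 0. Of 32851 RefSeq windows of the same length, 42.2% held at least 1. The FOXH1 motif AATCCACA (or TGTGGATT), which does not overlap the SMAD motif, was in neither window and in 0.718% of all windows. The matches describe these letters only.

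Cells with at least 2000 nuclear transcripts were kept, which left 543 of 576 barcodes at E6.75 and 429 of 1152 at E7.5. The design text states 1172 sorted cells. E7.5 replicate 5 kept 0 cells and entered no comparison. Kept cells per library numbered 85 to 96 at E6.75 and 15 to 71 in the 11 other E7.5 libraries, with 2933395 to 5493791 and 518343 to 2627269 nuclear transcripts. Pou5f1, Utf1 and T were detected in all 17 libraries and Mesp1 in all E7.5 libraries and in 3 of the 6 at E6.75. By fixed markers, 30 E6.75 cells and 2 E7.5 cells were visceral endoderm cells. Another 17 and 5 were extraembryonic ectoderm cells, and for these the extraembryonic part had been removed at E6.75. Nothing in the labels says that libraries came from separate litters, so p-values measure the spread between these libraries, which may be partly technical. The tests estimate that spread with information shared across genes, so a p-value does not rest on a member's own libraries alone.

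At E7.5, 6 of the 9 genes were lower than at E6.75 and 1 was higher, against 38.8% of all 9984 genes tested called in either direction. Nodal, Lefty1, Gdf3, Smad7, Pmepa1 and Skil fell, Foxh1 rose, and Lefty2 and Tdgf1 did not pass the test (edgeR quasi-likelihood test on transcripts summed per library, Benjamini-Hochberg adjusted p below 0.05). With all cells thinned to the same number of transcripts, only Skil, Lefty2 and Tdgf1 could be tested. There Skil passed, and so did either Lefty2 or Tdgf1, but which of them is not given here. The lack of a call for that gene therefore depends on the processing. The median log2 fold change of the 9 was −2.003, beside 0.03 over all genes tested. All levels are transcripts scaled to a common total of nuclear transcripts (CPM), given as the lowest, median and highest library. In such sums, fewer cells of a type and less RNA per cell cannot be told apart. Immediate early genes, which respond to handling as well as to signals, moved with the stages: the 11 listed summed to 580 to 997 CPM at E6.75 and 124 to 216 CPM at E7.5, with 9 of 10 tested lower and 0 higher. Summed markers of cell types moved as well: from E6.75 to E7.5 the median went from 6014 to 2832 CPM for epiblast, from 255 to 13.8 CPM for visceral endoderm, from 75.9 to 11.4 CPM for extraembryonic ectoderm, from 337 to 624 CPM for the streak and from 10.9 to 89.0 CPM for blood and endothelium. The part of these lists in the stage differences was not tested.

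The Nodal level was 45.2, 70.9 and 81.0 CPM in the 6 E6.75 libraries and 2.94, 10.2 and 33.8 CPM in the 11 E7.5 libraries. Every E7.5 library was below every E6.75 library, a 4.41-fold fall (95% interval 2.90 to 6.71, edgeR adjusted p = 1.45e-05). Nodal lies on chromosome 10 at 61417972 to 61425338 (GRCm38). Gdf3, on chromosome 6 at 122605403 to 122610087, was at 6.37, 11.1 and 20.5 CPM at E6.75 and at 0, 1.22 and 9.65 CPM at E7.5, where replicate 8 overlapped the E6.75 range. Gdf3 fell 7.81-fold (4.36 to 13.98, edgeR adjusted p = 1.49e-05). Both ligand genes thus moved the same way.

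Tdgf1, on chromosome 9 at 110939603 to 110946158, was at 227, 310 and 424 CPM at E6.75 and at 6.34, 83.0 and 354 CPM at E7.5. The E7.5 libraries spread widely: 5 of the 11 lay between 6.34 and 19.4 CPM, and replicates 6 and 9 at 354 CPM lay within the E6.75 range. The log2 difference was −1.43 (SE 0.57, edgeR adjusted p = 0.0506). Foxh1, on chromosome 15 at 76668225 to 76669948, was the member that went up, from 2.62, 9.23 and 17.3 CPM to 13.7, 23.1 and 38.9 CPM. Its rise was 2.48-fold (1.69 to 3.62, edgeR adjusted p = 0.000875), and 1 E7.5 library (replicate 6) overlapped the E6.75 libraries.

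The pair of Lefty genes, neighbours on chromosome 1, moved differently. Lefty1 (180935022 to 180938400) was at 10.8, 14.5 and 24.5 CPM at E6.75. At E7.5 it was at 0 in 7 of 11 libraries, with a highest level of 11.4 CPM in replicate 12. The fall was 16.5-fold (7.61 to 35.8, edgeR adjusted p = 1.11e-05), and without replicate 12 the log2 fold change of −4.05 became −5.80. Visceral endoderm markers fell with it, from 151 to 981 CPM in the E6.75 libraries to 2.96 to 371 CPM at E7.5. Lefty2 (180893108 to 180899103) was at 27.0, 65.0 and 90.1 CPM at E6.75 and at 25.5, 82.0 and 364 CPM at E7.5. Its libraries overlapped, with a log2 difference of 0.90 (SE 0.44, edgeR adjusted p = 0.111). The paralogs share sequence: 37.9% of the 50-base windows of the Lefty1 transcript matched Lefty2 within 2 mismatches, but 3.55% of those in its last 500 bases did, where these 3′ methods read. In the last 500 bases of Lefty2, 0 of 451 windows matched Lefty1.

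The 3 intracellular feedback genes all fell. Smad7, the gene of an inhibitory SMAD, on chromosome 18 at 75367529 to 75395935, was at 44.3, 77.6 and 128 CPM at E6.75 and 5.96, 20.6 and 48.9 CPM at E7.5, a 4.005-fold fall (2.60 to 6.17, edgeR adjusted p = 4.46e-05). Only E7.5 replicate 10 lay above the lowest E6.75 library. Pmepa1, which encodes a membrane protein that holds back receptor-regulated SMADs, fell 8.24-fold (4.91 to 13.8, edgeR adjusted p = 2.74e-06), from 56.2, 73.4 and 121 CPM to 0.608, 7.26 and 40.9 CPM. It lies on chromosome 2 at 173224458 to 173276533. Skil, the gene of the SMAD co-repressor SnoN, on chromosome 3 at 31095058 to 31122577, fell 4.01-fold (3.29 to 4.89, edgeR adjusted p = 3.31e-09), from 149, 179 and 190 CPM to 27.3, 43.1 and 77.1 CPM. For Pmepa1 and Skil, the libraries of the stages did not overlap.

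The shares of cells with a transcript were also compared after thinning each kept cell to 2000 transcripts. Tdgf1 was found in 36.2% ± 5.20 of cells (SD, n = 6 libraries) at E6.75 and 15.97% ± 19.8 (n = 11) at E7.5, and without thinning in 83.0% and 38.0%. Nodal was found in 10.6% ± 2.75 and 1.10% ± 1.64 of thinned cells, and in 59.0% and 14.7% of unthinned ones. Skil went from 28.4% ± 6.48 to 4.07% ± 3.99, and Pmepa1 from 14.5% ± 7.15 to 1.30% ± 1.74. Lefty2 was found in 7.58% ± 3.39 and 13.7% ± 11.04 of thinned cells, within the spread of the E7.5 libraries. Its direction depended on the depth, with 26.9% and 25.7% at 10000 transcripts and 48.4% and 34.3% without thinning. At 2000 transcripts per cell, Lefty1, Gdf3 and Foxh1 were found in under 4% of cells at both stages, too few to read an order from.

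The transcripts of some members were concentrated in few cells. At E6.75, the 54 cells with the most Lefty1 (10% of the 543) held 83.0% of its 360 transcripts, and 1 cell held 42.2. The corresponding share was 68.2% of 1576 transcripts for Lefty2, and 30.7% of 4117 for Skil. At E7.5, 43 of 429 cells held 90.0% of the 1346 Lefty2 transcripts and 83.6% of the 1416 Tdgf1 transcripts, while 46.0% of the 348 Foxh1 transcripts lay in its 43 highest cells. Most Lefty2 transcripts thus lay in the highest 10% of cells at both stages, and most of Skil at E6.75 and Foxh1 at E7.5 did not. Detection was another matter: Lefty2 was found in 263 of 543 cells at E6.75 and 119 of 429 at E7.5, and Foxh1 in 186 of 429 at E7.5. The Nodal transcripts at E7.5 numbered 220 in 61 cells, and those of Gdf3 and Lefty1 numbered 22 in 15 cells and 12 in 6 cells.

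Members were then compared between cells with and without at least 1 transcript of Eomes, T, Mesp1 or Foxa2 within the same library, with the library as a block and both stages in 1 fit. These genes were found in 444, 156, 50 and 132 cells at E6.75 and in 198, 283, 137 and 61 cells at E7.5. Detection depends on depth, and positive cells had the higher median depth for each gene. The median over libraries of the median depth was 43135 transcripts in cells with Eomes and 10598 in cells without at E6.75. At E7.5 it was 40090 and 25871 for Mesp1, and closer for Foxa2, at 35314 and 32958. What made the depths differ was not tested. Where an alternative with cells thinned to 2000 transcripts tested a gene and lost its call, this is said beside it. An antisense gene, Gm33460, overlaps Eomes on the opposite strand, and use of strand in counting is not given in the sources used here.

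At E6.75, 3 of 8 tested members passed with T (2.22% of all genes called), 1 of 7 with Mesp1 (1.27%), 1 of 9 with Foxa2 (2.8%), and 0 of 8 with Eomes (0.0227%). DESeq2 called 0 members with any of these genes at E6.75. The share of all genes that DESeq2 called is not given here or below, so its counts say nothing about the members in particular. For Eomes, 4 members had an unadjusted p below 0.05 by edgeR. At E7.5, 2 of 8 passed with Eomes (1.13%), 2 of 8 with T (2.79%), 4 of 7 with Mesp1 (8.02%) and 2 of 9 with Foxa2 (4.57%). The difference between the stages passed for Tdgf1 with Eomes (0.034% of all genes), Lefty2 with T (0.507%), and Nodal and Lefty2 with Foxa2 (1.33%). It passed for 0 of 7 members with Mesp1 (0.365%), where 1 had an unadjusted p below 0.05 by edgeR and DESeq2 called 0. Stages also differ in which cells a gene marks, and what part of a difference this makes was not tested.

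Among these comparisons, the largest difference of any member was that of Lefty2 with Mesp1 at E7.5. In cells without Mesp1, the level of Lefty2 was 0, 7.50 and 141 CPM (lowest, median and highest of 11 libraries), and in cells with Mesp1 93.6, 208 and 524 CPM. It was higher in Mesp1-positive cells in 11 of 11 libraries, 22.8-fold (14.6 to 35.7, edgeR adjusted p = 1.36e-10). The 137 cells with Mesp1 were 31.9% of the E7.5 cells and held 39.1% of all transcripts, but 94.3% of the Lefty2 transcripts (1269 of 1346). With cells thinned to 2000 transcripts, the log2 fold change of 4.51 became 3.15 (edgeR adjusted p = 1.22e-06).

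At E6.75, 3 libraries had enough Mesp1-positive cells. Lefty2 was at 18.3, 214 and 323 CPM in cells with Mesp1 and at 28.3, 38.9 and 35.1 CPM in cells without, in replicates 2_9, 2_13 and 2_14. It was higher in 2 of the 3 libraries, and lower in 2_9, which had 5 Mesp1-positive cells. The rise was 4.87-fold (2.83 to 8.3997, edgeR adjusted p = 0.00111). It was lost without 2_13 (log2 2.10, adjusted p = 0.125), without 2_14 (1.64, adjusted p = 0.223), on thinned cells (1.97, adjusted p = 0.250) and by DESeq2 (1.82, adjusted p = 0.846). Libraries 2_13 and 2_14, which carried the rise, used interleaved, complementary barcode columns and were the most alike pair of the stage (chi-square per degree of freedom 3.46, against 8.07 to 19.2 for other pairs). The labels list them as separate samples, and whether they share an embryo is not given in the sources used here. The 50 Mesp1-positive cells, 9.21% of the stage, held 41.0% of its 1576 Lefty2 transcripts. The difference between the stages was 2.23 on the log2 scale (SE 0.54, edgeR adjusted p = 0.0732).

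T, which is expressed through the streak, gave the same direction for Lefty2. At E7.5, Lefty2 was at 0, 5.55 and 98.8 CPM without T and at 44.4, 117 and 400 CPM with T, higher in 11 of 11 libraries and 8.18-fold in the fit (5.06 to 13.2, edgeR adjusted p = 1.47e-06). Without replicate 6, whose T-negative cells were the highest, the log2 fold change of 3.03 became 3.96. Cells with T but neither Mesp1 nor Foxa2 held 41 of the 1346 Lefty2 transcripts of E7.5, and cells with Mesp1 and no Foxa2 held 1240. At E6.75, the rise was 1.98-fold (1.41 to 2.79, edgeR adjusted p = 0.0267) and seen in 6 of 6 libraries, and the call was lost without 2_12 (log2 0.99, adjusted p = 0.0675), 2_13 (0.80, 0.255) or 2_14 (0.71, 0.408). The stages differed by 2.05 on the log2 scale (SE 0.47, edgeR adjusted p = 0.0307). That difference was no longer called without any 1 of E6.75 replicates 1_10, 1_11 and 2_12 or E7.5 replicates 3, 4, 8, 9, 11 and 12, with log2 values of 1.82 to 2.04 and adjusted p of 0.0521 to 0.0785, and was 2.98 without E7.5 replicate 6. It was also lost with at least 5 cells per arm (2.02, adjusted p = 0.0606) and in the E6.75 libraries whose label begins with 2 (1.75, adjusted p = 0.151), and was 3.04 by DESeq2.

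Foxa2 went with less Lefty2 at E7.5. Lefty2 was at 26.4, 83.7 and 226 CPM in cells without Foxa2 and at 0, 11.2 and 52.0 CPM in cells with it, lower in 8 of 9 libraries. The fall was 5.85-fold (3.56 to 9.62, edgeR adjusted p = 2.25e-05), and −3.21 in place of −2.55 on the log2 scale without replicate 12, the 1 library in which Lefty2 was higher with Foxa2. With positive cells holding at least 2 transcripts of Foxa2 it was −4.17. The 61 Foxa2-positive cells held 37 of the 1346 Lefty2 transcripts (2.75%) and 16.7% of all transcripts. The cells without Foxa2 included 125 of the 137 cells with Mesp1. Over all E7.5 cells pooled, Lefty2 was at 253 CPM with Mesp1 and no Foxa2, and at 4.33 CPM with Foxa2 and no Mesp1. Cells with neither were at 11.2 CPM with T, 15.2 CPM with Eomes only and 6.79 CPM with none of the 4 genes. A difference with Foxa2 apart from Mesp1 was not tested. At E6.75 the Foxa2 contrast gave −0.24 (SE 0.23, edgeR adjusted p = 0.779), with 4 of 6 libraries higher. The stages differed by −2.31 (SE 0.46, edgeR adjusted p = 0.00391), by −2.96 without E7.5 replicate 12 and by −3.97 with at least 2 transcripts. Requiring at least 5 cells in each arm took the adjusted p of that difference to 0.0952 (−1.96).

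**Figure D1:**
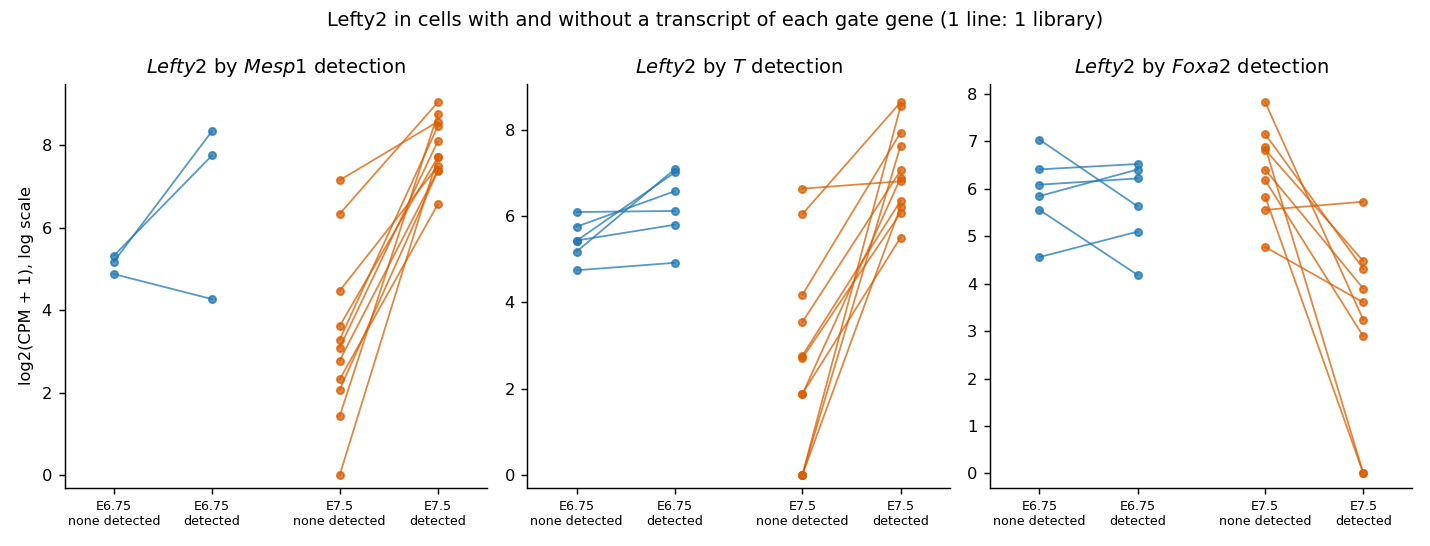
Each line joins the Lefty2 level, as log2(CPM + 1), of cells without and with a transcript of Mesp1, T or Foxa2 in 1 library. All 11 E7.5 lines rise for Mesp1 and for T, and 8 of 9 fall for Foxa2, while the E6.75 lines run in both directions for Mesp1 (2 up, 1 down) and Foxa2 (4 up, 2 down).

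Nodal was higher in cells with T at both stages and, at E7.5, in cells with Eomes or Foxa2. At E6.75 its level was 37.3, 53.5 and 70.1 CPM without T and 57.7, 86.9 and 142 CPM with T, higher in 6 of 6 libraries and 1.72-fold in the fit (1.37 to 2.17, edgeR adjusted p = 0.00508). This call was lost without 1_11 (log2 0.69, adjusted p = 0.0516) or 2_14 (0.75, 0.0646), and in the 4 E6.75 libraries whose label begins with 2 (0.67, 0.186). At E7.5 the levels were 0, 2.69 and 10.96 CPM and 0, 12.5 and 49.9 CPM, higher in 9 of 11 libraries and 4.75-fold (2.61 to 8.65, edgeR adjusted p = 0.00188), but not called without replicate 3 (log2 1.60, adjusted p = 0.0754). The 283 T-positive cells held 93.2% of the 220 Nodal transcripts of E7.5 and 73.1% of all transcripts. The stages differed by 1.46 (SE 0.50, edgeR adjusted p = 0.292).

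Eomes, a target of NODAL signalling, separated the Nodal levels of E7.5 cells as well. Nodal was at 0, 1.13 and 10.9 CPM without Eomes and 0, 19.5 and 61.5 CPM with it, higher in 8 of 10 libraries. The rise was 5.67-fold (3.02 to 10.6, edgeR adjusted p = 0.00234), with an adjusted p of 0.0962 by DESeq2 and a log2 value of 1.91 in place of 2.50 without replicate 3. The 198 cells with Eomes held 195 of the 220 Nodal transcripts (88.6%), and 56.6% of all transcripts. At E6.75 the difference was 1.45 (SE 0.37) and did not pass (edgeR adjusted p = 0.230), with 5 of 6 libraries higher. In that comparison the Eomes-negative arms of replicates 2_13 and 2_14 held 3 cells each.

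Foxa2-positive cells of E7.5 were few and uneven in Nodal. The level was 0, 8.004 and 35.6 CPM in cells without Foxa2 and 0, 16.2 and 346 CPM in cells with it, higher in 6 of 9 libraries. The rise was 5.51-fold (3.07 to 9.90, edgeR adjusted p = 0.000435), and 1.64 in place of 2.46 on the log2 scale without replicate 3, where 4 Foxa2-positive cells were at 346 CPM. The 61 cells held 96 of the 220 Nodal transcripts (43.7%), against 16.7% of all transcripts. At E6.75 the levels were 38.7, 62.4 and 80.2 CPM and 57.1, 74.9 and 86.1 CPM, with a difference of 0.32 (SE 0.24, edgeR adjusted p = 0.659). The stages differed by 2.14 (SE 0.48, edgeR adjusted p = 0.0147), which was lost without E7.5 replicate 2 (1.99, adjusted p = 0.0991) or 3 (1.32, 0.164), with at least 5 cells per arm (1.58, 0.116), with at least 2 transcripts of Foxa2 (1.48, 0.213) and by DESeq2 (1.52, 0.560).

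With Mesp1, Nodal went the other way from Lefty2 at E7.5. It was at 0, 20.4 and 56.4 CPM in cells without Mesp1 and 0, 8.13 and 35.4 CPM in cells with it, lower in 7 of 11 libraries. The log2 fold change was −1.05 (SE 0.33, edgeR adjusted p = 0.0442), and the call was lost without any 1 of replicates 1, 2, 4, 6, 11 and 12, with values of −1.07 to −0.75 and adjusted p of 0.0528 to 0.266. It was also lost by DESeq2 (−1.004, adjusted p = 0.0879), in cells of at least 10000 transcripts (−1.06, 0.0541) and with at least 5 cells per arm (−1.05, 0.0528). With positive cells holding at least 2 transcripts of Mesp1, it was −2.01 (edgeR adjusted p = 0.000166). At E6.75 Nodal was lower in 3 of 3 libraries, −0.39 (SE 0.30, edgeR adjusted p = 0.953). Gdf3, the other ligand gene, passed the filter on low counts in 2 of these 4 comparisons, by T and by Foxa2, and was called in neither.

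Tdgf1 was higher in cells with T at E6.75 and in cells with Eomes or Mesp1 at E7.5. At E6.75 it was at 170, 214 and 279 CPM without T and at 393, 517 and 655 CPM with T, with no overlap, a 2.36-fold rise (1.82 to 3.07, edgeR adjusted p = 7.96e-05, 0.477 by DESeq2). At E7.5 it was at 0, 12.5 and 79.5 CPM without Eomes and at 9.05, 82.3 and 441 CPM with it, higher in 9 of 10 libraries and 6.38-fold in the fit (4.44 to 9.17, edgeR adjusted p = 8.87e-08). The Eomes-positive cells held 93.3% of the 1416 Tdgf1 transcripts of E7.5. At E6.75 the Eomes difference was 0.86 (SE 0.21, edgeR adjusted p = 0.168), higher in 6 of 6 libraries.

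The difference between the stages for Tdgf1 with Eomes was 1.82 on the log2 scale (SE 0.36, edgeR adjusted p = 0.0414). It was close to the threshold: the call was lost without any 1 of E6.75 replicates 1_10, 1_11, 2_9, 2_12 and 2_14 or E7.5 replicates 1, 2, 4, 6, 10 and 11, with values of 1.51 to 1.85 and adjusted p of 0.0656 to 0.284, in cells of at least 10000 transcripts (1.87, 0.0578), on thinned cells (2.28, 0.134) and by DESeq2 (1.20, adjusted p = 0.9996). With Mesp1 at E7.5, Tdgf1 was at 0, 55.4 and 317 CPM in negative and 15.8, 68.8 and 472 CPM in positive cells. It was higher in 10 of 11 libraries and 2.04-fold in the fit (1.42 to 2.94, edgeR adjusted p = 0.0127), and lost without replicate 11 (log2 0.84, adjusted p = 0.0562) and on thinned cells (1.09, 0.105). Its log2 difference with T at E7.5 was 1.09 (SE 0.32, edgeR adjusted p = 0.0559), higher in 8 of 11 libraries.

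**Figure D2:**
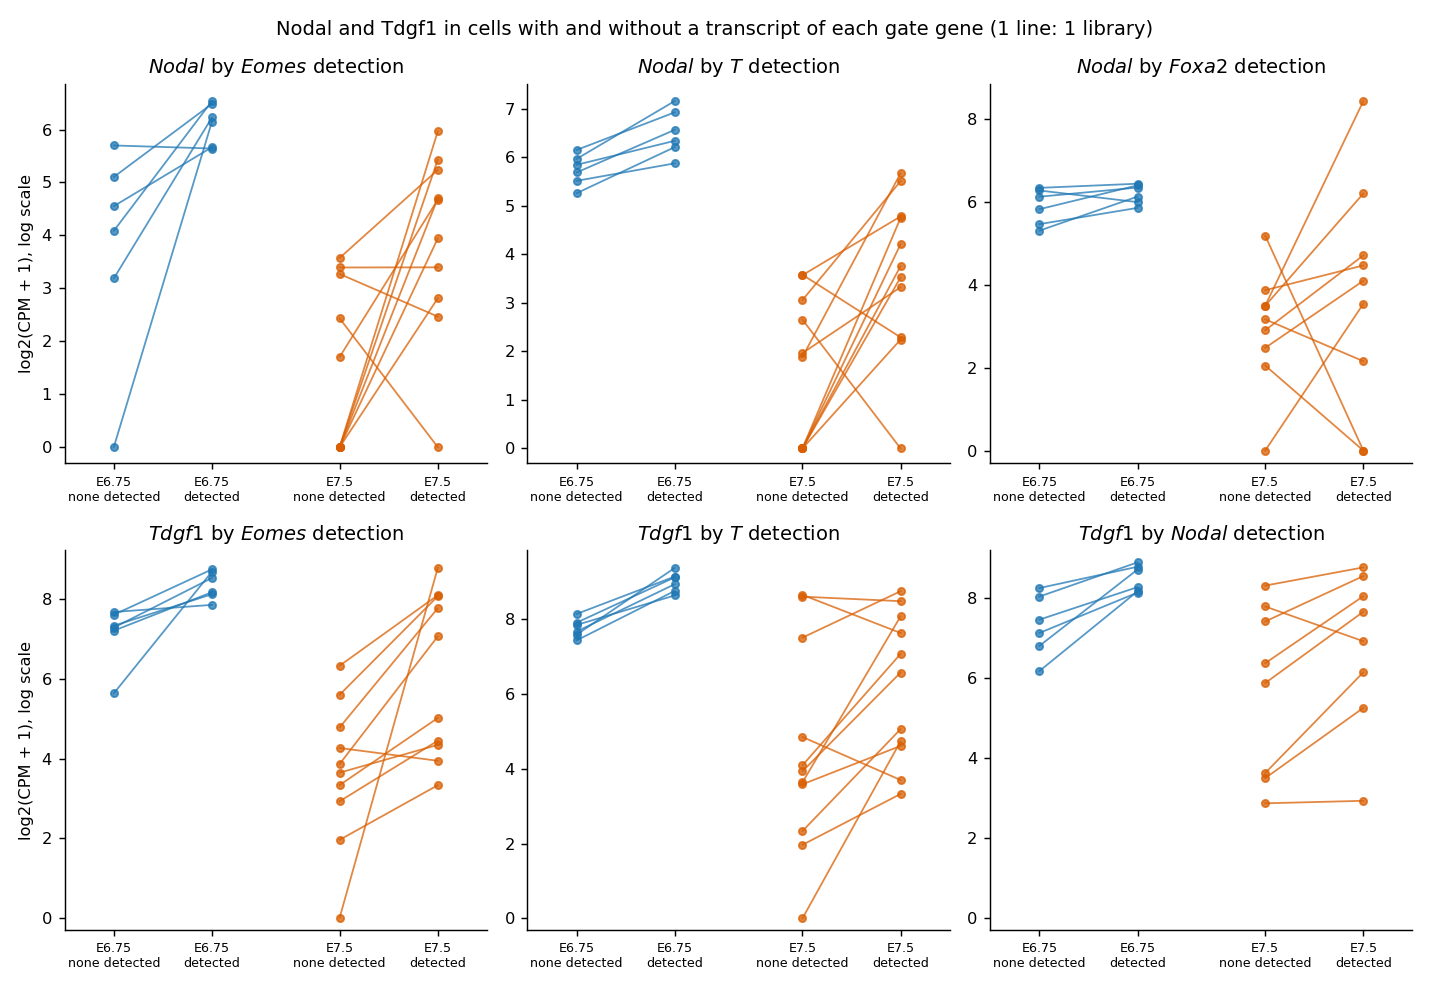
Lines join the levels of Nodal (upper row) and Tdgf1 (lower row), as log2(CPM + 1), in cells without and with a transcript of the gene named, 1 line per library. The lines for T rise in 6 of 6 E6.75 libraries for both genes, and the Nodal line of E7.5 replicate 3 reaches 346 CPM in cells with Foxa2.

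Of Foxh1 and the feedback genes, Foxh1 alone passed with any of these 4 genes. It passed once, with Mesp1 at E7.5, at 11.7, 20.4 and 70.4 CPM in negative and 15.4, 33.0 and 57.6 CPM in positive cells. It was higher in 9 of 11 libraries, 1.60-fold in the fit (1.24 to 2.07, edgeR adjusted p = 0.0217), and lost without any 1 of replicates 1, 2, 7 and 10 (log2 0.58 to 0.65, adjusted p of 0.0534 to 0.115). Smad7, Pmepa1 and Skil passed in 0 of the 8 comparisons by Eomes, T, Mesp1 or Foxa2. The nearest were Smad7 with Foxa2 at E7.5 (−0.99, SE 0.34, edgeR adjusted p = 0.0928) and Pmepa1 with T at E6.75 (0.45, SE 0.15, edgeR adjusted p = 0.156), which was higher in 6 of 6 libraries. Log2 differences that did not pass ran as high as 1.03 (SE 0.46, edgeR adjusted p = 0.328), for Pmepa1 with T at E7.5.

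Lefty1 was read in the visceral endoderm as well as in embryonic cells, since Lefty1 is known from the anterior visceral endoderm. At E6.75, cells in which 13 measured visceral endoderm markers held at least 0.5% of transcripts were compared with the other cells of the same 4 libraries, and 6 of 9 members passed, against 29.9% of all genes. Lefty1 was at 112, 24.4, 136 and 248 CPM in the 26 marker cells of replicates 1_11, 2_9, 2_13 and 2_14, and at 8.63, 11.4, 10.6 and 6.77 CPM in their other cells. The groups did not overlap, with an 11.3-fold rise (6.85 to 18.5, edgeR adjusted p = 7.31e-19). So small a p, here and for other members in these cells, rests on a spread shared across genes more than on these 4 libraries. The highest adjusted p for Lefty1 in any edgeR or DESeq2 alternative was 1.33e-05. On the log2 scale the rise of 3.49 was 4.08 without 2_9 and 2.84 without 2_14. All 30 such cells, 5.52% of the stage with 3.32% of its transcripts, held 91 of the 360 Lefty1 transcripts (25.4%).

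The other members ran the opposite way or did not pass in these cells. Lefty2 was at 0 in 3 of the 4 libraries and at 17.4 CPM in 2_9, against 45.5, 27.8, 94.0 and 88.3 CPM in other cells, 9.08-fold lower (4.52 to 18.2, edgeR adjusted p = 1.85e-08), and with a log2 value of −2.33 in place of −3.18 without 2_13. By DESeq2, the log2 value of Lefty2 was −4.59 (adjusted p = 0.0299). Without 2_9, the marker cells held 0 Lefty2 transcripts. Tdgf1 was at 13.999, 59.3, 35.1 and 7.28 CPM against 257, 301, 427 and 436 CPM, 10.6-fold lower (7.30 to 15.5, edgeR adjusted p = 4.80e-30), and −4.30 in place of −3.41 without 2_9. The highest adjusted p for Tdgf1 in any edgeR or DESeq2 alternative was 0.000336. Gdf3 had 0 of 723628 transcripts in the marker cells, against 11.4 CPM in the others. A floor of 3 counts over the group is 4.15 CPM, so Gdf3 was at least 2.75-fold lower. Nodal was at 42.0, 80.2, 123 and 124 CPM against 76.8, 46.3, 67.2 and 70.9 CPM, higher in 3 of 4 libraries (0.55, SE 0.26, edgeR adjusted p = 0.0939).

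Smad7 (−0.88, SE 0.31, edgeR adjusted p = 0.0188) and Skil (−0.64, SE 0.23, edgeR adjusted p = 0.0206) were lower in the marker cells. Smad7 was lost without 1_11 (−0.73, adjusted p = 0.0621), 2_9 (−0.72, 0.148) or 2_13 (−0.96, 0.0767) and by DESeq2 (−0.97, 0.0920), and Skil without 1_11 (−0.52, 0.0870) or 2_13 (−0.46, 0.267), by DESeq2 (−0.67, 0.0856) and on thinned cells (−0.55, 0.720). Pmepa1 and Foxh1 gave −0.34 and 0.21 (edgeR adjusted p = 0.347 and 0.834). These cells also had fewer epiblast marker transcripts, 1842 against 6284 CPM summed over all cells of each kind, more extraembryonic ectoderm marker transcripts, 424 against 75.6 CPM, and a median depth of 25432 against 47979 transcripts over the 4 libraries.

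**Figure D3:**
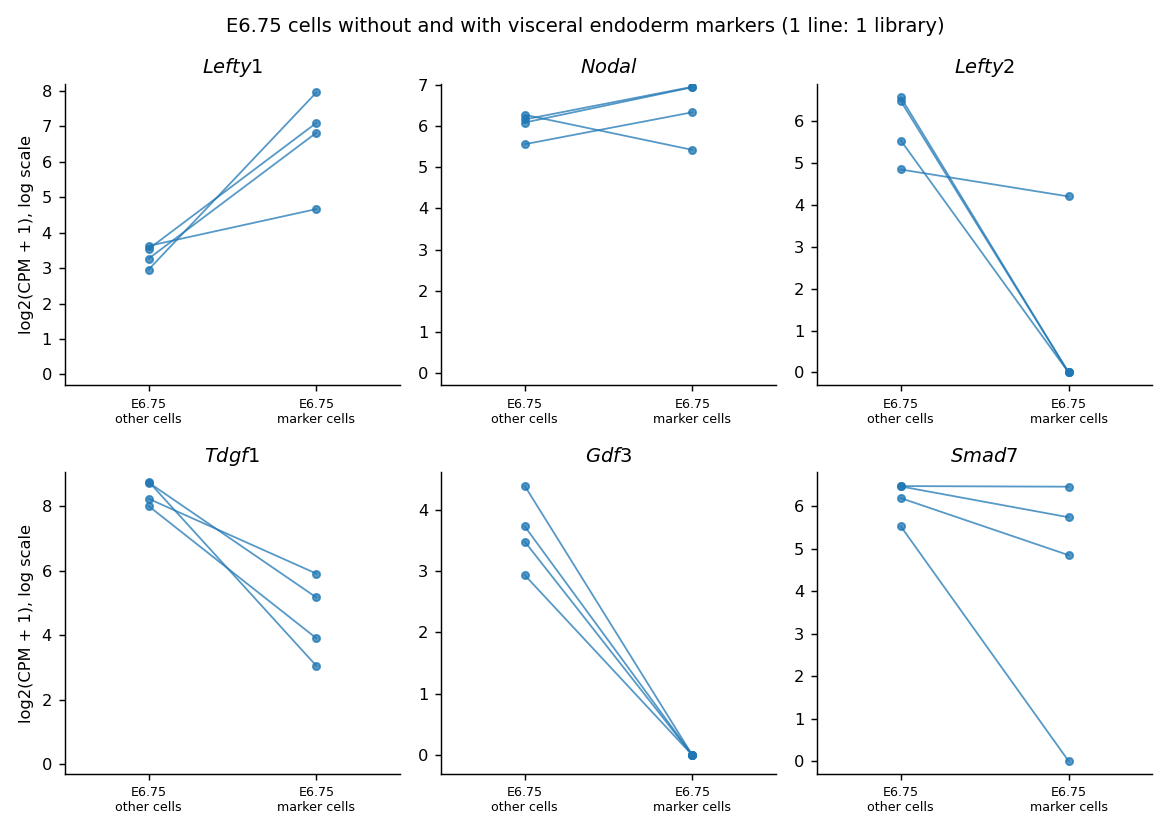
Lines join levels, as log2(CPM + 1), of E6.75 cells without and with visceral endoderm markers in 4 libraries. Lefty1 rises in all 4 while Lefty2, Tdgf1 and Gdf3 fall in all 4, and Nodal rises in 3.

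At E6.75, Lefty1 was the member that passed with Foxa2, a gene of both visceral and definitive endoderm. It was at 7.04, 9.98 and 12.6 CPM in cells without Foxa2 and at 13.3, 29.6 and 116 CPM in cells with it, with no overlap and a 3.31-fold rise (2.17 to 5.04, edgeR adjusted p = 0.000801, 0.0571 by DESeq2). Of the 132 Foxa2-positive cells, 22 were visceral endoderm marker cells, and the 13 markers summed to 1059 CPM in positive and 118 CPM in negative cells. Without the visceral endoderm and extraembryonic ectoderm marker cells, the log2 difference was 0.94 in place of 1.73 and did not pass (edgeR adjusted p = 0.668). Within the E6.75 libraries whose label begins with 2, it was 1.18 (edgeR adjusted p = 0.0723). Without 2_13 or without 2_14, Lefty1 did not pass the filter on low counts.

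Each cell was also placed in 1 of 6 classes, sorted by Mesp1 and Foxa2 first, then T, then Eomes, and class means are over libraries with at least 3 cells. Between the stages, 7 of the 9 members had a lower mean at E7.5 in 6 of 6 classes (Nodal, Gdf3, Tdgf1, Lefty1, Smad7, Pmepa1 and Skil), and Foxh1 had a higher mean in 6 of 6. The share of all genes with 1 direction in 6 of 6 classes is not given here. These counts therefore say nothing about the members in particular. In cells with Mesp1 and Foxa2, the E7.5 value of 0 cannot show a fall for Lefty1 and Gdf3. There 3 transcripts would make 6.77 CPM, above the E6.75 means of 5.43 and 6.06 CPM. Lefty2 was higher in 1 class, cells with Mesp1 and no Foxa2 (206 and 281 CPM), and lower in 5. Over all cells pooled, that class was at 261 CPM at E6.75 and 253 CPM at E7.5, the opposite order, and the lowest of its 3 E6.75 libraries was at 23.4 CPM. These class differences were not tested. Cells with none of the 4 genes had a median depth of 9907 transcripts at E6.75 and 15115 at E7.5, the lowest of the classes at each stage.

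In class order, Lefty2 at E7.5 was at 281 CPM ± 132 (SD, n = 11 libraries) in cells with Mesp1 alone, 49.8 ± 5.83 (n = 2) with Mesp1 and Foxa2, 33.8 ± 66.5 (n = 10) with T, 31.4 ± 39.0 (n = 5) with Eomes only, 15.9 ± 32.4 (n = 9) with none and 6.31 ± 7.43 (n = 8) with Foxa2 alone. Only the first step was larger than the SDs on either side of it. At E6.75, cells with Mesp1 and Foxa2 (252 ± 174, n = 2) and with Mesp1 alone (206 ± 158, n = 3) were highest, the other 4 classes lay between 40.6 and 61.2 CPM, and no step exceeded the larger SD of its neighbours. Over all cells pooled, the 12 E7.5 cells with both Mesp1 and Foxa2 were at 65.5 CPM and the 21 such cells at E6.75 at 160 CPM.

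Nodal was highest in T-positive cells without Mesp1 or Foxa2 at E6.75 (97.7 CPM ± 38.3, n = 6) and in Foxa2-positive cells at E7.5 (59.5 ± 120, n = 8), where 1 library at 347 CPM set most of the mean. At E6.75 it was at 76.6 ± 14.7 (n = 6) with Foxa2, 57.0 ± 18.8 (n = 6) with Eomes only, 55.0 ± 7.77 (n = 2) with Mesp1 and Foxa2, 47.9 ± 27.7 (n = 3) with Mesp1 and 29.2 ± 15.0 (n = 4) with none. Of these neighbours, Foxa2 and Eomes only differed by slightly more than the larger SD. At E7.5 no neighbours did, down to 0.930 ± 2.79 (n = 9) in cells with none of the 4 genes.

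Tdgf1, the co-receptor gene, had its highest mean in Mesp1 classes at E6.75, 716 ± 218 (n = 2) with Foxa2 and 648 ± 256 (n = 3) without, then 400 ± 72.3 (n = 6) with T, 355 ± 152 (n = 6) with Foxa2, 233 ± 59.3 (n = 6) with Eomes only and 154 ± 39.1 (n = 4) with none. Only the last of these steps exceeded the larger SD. At E7.5 it ran from 183 ± 169 (n = 11) with Mesp1 to 15.6 ± 21.9 (n = 9) with none, with every step within the SDs. Lefty1 at E6.75 was at 45.0 ± 36.9 (n = 6) with Foxa2 alone and at 4.11 to 12.3 CPM in the 5 other classes, each step within the larger SD.

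**Figure D4:**
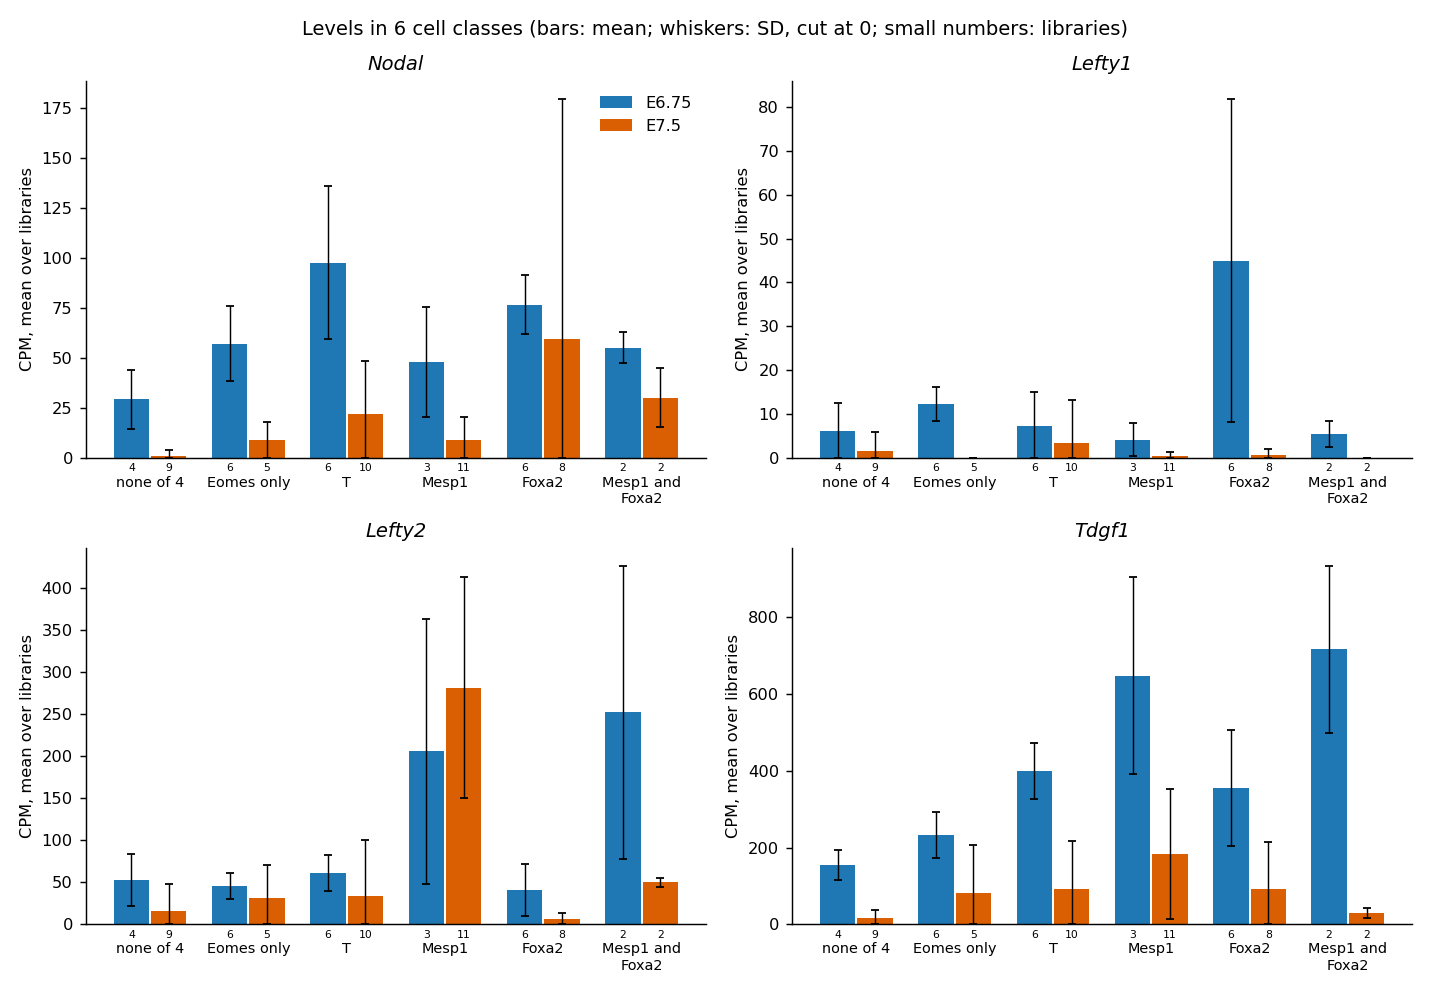
Bars give the mean level in CPM over libraries, and whiskers the SD, of Nodal, Lefty1, Lefty2 and Tdgf1 in the 6 classes at E6.75 and E7.5, with the number of libraries under each bar. The mean of Lefty2 in cells with Mesp1 and no Foxa2 is higher at E7.5 (281 against 206 CPM), unlike the pooled level of that class (253 against 261 CPM), while Nodal, Lefty1 and Tdgf1 are lower in every class. With Mesp1 and Foxa2, the E6.75 mean of Lefty1 (5.43 CPM) is under the 6.77 CPM that 3 transcripts make at E7.5.

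Cells with Nodal itself were compared with cells without, leaving Nodal out. At E6.75, 1 of 7 tested members passed (1.36% of all genes), and at E7.5 2 of 7 did (3.28%). Tdgf1, which encodes the co-receptor NODAL needs, was higher with Nodal at both stages. At E6.75 it was at 71.2, 157 and 304 CPM without and 281, 364 and 474 CPM with Nodal, higher in 6 of 6 libraries and 2.06-fold in the fit (1.61 to 2.64, edgeR adjusted p = 0.00148, 0.0749 by DESeq2). At E7.5 it was at 6.28, 69.7 and 317 CPM and 6.60, 161 and 435 CPM, higher in 7 of 8 libraries and 2.14-fold (1.55 to 2.94, edgeR adjusted p = 0.00641). In the E6.75 libraries whose label begins with 2 the log2 difference was 0.73 (adjusted p = 0.122). Without E7.5 replicate 2 it was 0.91 at that stage (adjusted p = 0.0933), and on thinned cells 0.94 (0.383).

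Skil rose with Nodal at E7.5, from 24.6, 40.5 and 72.3 CPM to 37.1, 72.3 and 111 CPM. It was higher in 8 of 8 libraries, 1.63-fold in the fit (1.34 to 1.97, edgeR adjusted p = 0.00381), and not called without replicate 2 (log2 0.62, adjusted p = 0.0586). Pmepa1 lay near the threshold at both stages, 0.74 (SE 0.20, edgeR adjusted p = 0.0695) at E6.75 and 1.64 (SE 0.47, edgeR adjusted p = 0.0535) at E7.5. The difference between the stages passed for 0 of 7 members (0.316% of all genes), with 2 at an unadjusted p below 0.05 by edgeR, and DESeq2 called 0. Cells with Nodal had a median depth of 53253 against 15187 transcripts at E6.75 and 45565 against 29487 at E7.5, and more summed streak marker transcripts at E7.5, 1582 against 577 CPM.

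Pairs of members were counted in cells of at least 10000 transcripts thinned to 10000, 451 at E6.75 and 339 at E7.5, and set beside the number expected if each was independent within its library. At E7.5, Nodal and Tdgf1 were found together in 18 cells against 8.60 expected, above in 8 libraries and below in 0. Pmepa1 and Skil shared 18 cells (9.84 expected), Lefty2 and Foxh1 19 (10.6), and Foxh1 and Smad7 4 (9.42, below in 10 of 11 libraries). A member found in most cells leaves its pairs little room above the expected number: Tdgf1 was in 328 of 451 cells at E6.75 and 79 of 339 at E7.5. The stages are therefore not compared. At E6.75, Gdf3 and Foxh1 shared 7 cells against 3.79 expected and Lefty1 and Foxh1 8 against 4.94, each above in 3 libraries and below in 3. Lefty2 and Pmepa1 shared 73 cells against 59.2 expected and Tdgf1 and Pmepa1 180 against 163, each above in 6 of 6 libraries, and the Lefty genes shared 11 against 11.5.

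Genes with the most similar profile over the 12 class levels (6 classes at 2 stages) were found by Pearson correlation of log2(CPM + 1) among 8327 genes. The class levels share libraries and depth, so the correlations are descriptions. Differences between the stages enter them along with differences between classes, and the 2 were not separated. For Nodal they were Rrbp1 (0.93), Tmem2 (0.92) and Canx (0.91), and for Lefty2 Ypel3 (0.92), Smad1 (0.89), which encodes a SMAD of the BMP branch, and Nop9 (0.87). Tdgf1 was nearest to Fbxw7, Cdk5rap2 and Gm26619 (0.94 to 0.96), Lefty1 to Usp15, Mad1l1 and Rara (0.93 to 0.95), and Gdf3 to Ide, Ubald1 and Taf3 (0.96 to 0.97). Foxh1 was nearest to Eci2, Vps4a and Rbms1 (0.96 to 0.97), Smad7 to Mphosph10, Plaa and Cdk11b (0.97 to 0.98), and Skil to Prpf6, Dppa5a and Ncl (0.99). Pmepa1 was nearest to Ranbp2 (0.97) and to the FGF feedback genes Dusp6 and Spry4 (both 0.96). Among members, Smad7 and Pmepa1 were closest (0.96) and Gdf3 and Foxh1 most opposed (−0.88).

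The wider pathway was read from a list of 38 receptors, ligands, convertases, SMADs, inhibitors and targets. Between the stages 30 were tested, and 13 were higher and 6 lower at E7.5, against 38.8% of all genes tested called in either direction. Smad3 (1.10, SE 0.19), which transduces the signal, and inhibitor genes Smad6 (1.34, SE 0.25), Cer1 (2.72, SE 0.53) and Fst (1.69, SE 0.33) rose, as did Cfc1 (2.33, SE 0.43), the relative of Tdgf1 (edgeR adjusted p of at most 0.000422 for these 5). The target Fgf8 (−2.63, SE 0.31) fell with the feedback gene Ski (−0.66, SE 0.13), the convertase gene Pcsk6 (−1.24, SE 0.31) and Tgif1 (−0.49, SE 0.15, edgeR adjusted p of at most 0.0149 for these 4). The median of the 30 tested genes was 0.18.

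Within libraries, Fst, which encodes the activin-binding follistatin, was the listed gene that passed most often: it was higher with Eomes, T, Mesp1 and Nodal at both stages, by 0.52 to 2.71 on the log2 scale. Over all genes tested, the shares called at E6.75 and E7.5 were 2.22% and 2.79% with T, 1.27% and 8.02% with Mesp1, and 2.8% and 4.57% with Foxa2. The listed targets include Eomes, Mesp1 and Foxa2, which were themselves used to split cells. With T, 8 of 28 tested genes were higher and 0 lower at E6.75, and 5 higher and 1 lower at E7.5, with the lowest p at both stages for Mixl1 (3.98, SE 0.30, and 4.35, SE 0.48), a homeobox gene of the streak. Mesp1 differed by more at E6.75 (5.06, SE 0.40). With Mesp1, 4 of 27 were higher at E6.75 and 5 at E7.5, among them Lhx1, Wnt3 and Mixl1 at both. Foxa2 (−2.57, SE 0.32) and Sox17 (−3.40, SE 0.47), genes of endoderm, were lower with Mesp1 at E7.5. With Foxa2, 8 of 29 were higher at E6.75 and 3 at E7.5, including Sox17 (3.20, SE 0.48, and 4.69, SE 0.36) and Cer1 (4.85, SE 0.76, and 3.99, SE 0.40) in both.

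The list also moved with Nodal and with the visceral endoderm markers. Over all genes tested, the shares called at E6.75 and E7.5 were 1.36% and 3.28% with Nodal and 0.0227% and 1.13% with Eomes. The share in visceral endoderm marker cells was 29.9%. With Nodal, 3 of 29 were higher and 1 lower at E6.75, and 4 higher and 0 lower at E7.5, with Fgf8 higher at both (1.91, SE 0.29, and 2.07, SE 0.54). Foxa2 (2.31, SE 0.39) and Eomes (1.53, SE 0.28) were higher with Nodal at E7.5. In the visceral endoderm marker cells, 11 of 29 were higher and 5 lower. Cer1 (6.08, SE 0.39) and Lhx1 (3.43, SE 0.22), which like Lefty1 are known from the anterior visceral endoderm, were higher, and Fst (−3.48, SE 0.41) was lower. With Eomes, 1 of 29 was higher at E6.75, and at E7.5 2 were higher and 1 was lower, the last being Cfc1 (−1.38, SE 0.32, edgeR adjusted p = 0.0237).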

How the data were processed

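The authors deposited expected counts for each gene in each cell barcode, whole numbers of unique molecular identifiers (UMIs) corrected for collisions among 4096 UMI sequences. bcl2fastq 2.17.1.14 and BWA 0.6.2-r126 are named in the submitters' processing notes; build, annotation and use of strand are not given in the sources used here. Each library filled 96 of 192 barcode columns. The 74 ERCC and 22 mitochondrial rows of 23093 were left out, and cells with at least 2000 nuclear transcripts were kept. No doublet caller was run on these picked or sorted cells. No pair of libraries agreed within sampling noise (chi-square per degree of freedom 3.46 to 19.2 among E6.75 libraries, 2.12 to 11.8 among E7.5 libraries).

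Transcripts were summed per library or per arm of a library (at least 3 cells), rounded, and tested with edgeR 4.0.16 in R 4.3.3 (TMM, filterByExpr, quasi-likelihood F test, Benjamini-Hochberg over all genes tested, threshold 0.05); SEs were derived from F, and 95% intervals are 1.96 SE either side. Alternatives included DESeq2 1.42.0. On simulated counts for the stage comparison of 9749 genes, 86.6% of 97 genes changed 2-fold and 100% of 97 changed 4-fold were recovered, with 12 false calls; for Mesp1 at E7.5 (7937 genes) these were 89.9%, 100% and 10 false calls, and for Foxa2 at E7.5 (8482 genes) 71.9%, 96.9% and 5. Positions are from GENCODE M21. Members and lists were chosen with earlier results of these data known. Named in every comparison were the members, and of other genes at most 5 of the wider list per direction by lowest p, and the 3 most similar genes by class profile. Of the genes this rule names, 1 is not reported here.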

Additional observations from a re-analysis of the deposited data

Results flagged for a closer look

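In 42 groups of 4 to 10 libraries behind stage levels and called comparisons, 5 held a library far from the others by Dixon's criterion. Chance gives about 1 in 20 for normally distributed values, which levels with many zeros are not. Groups of 11 libraries, at E7.5 the stage levels and the T and Mesp1 arms, were not checked. Lefty1 in Foxa2-positive cells of E6.75 replicate 1_10 was at 116 CPM, with the next library at 45.8. Nodal in Foxa2-positive cells of E7.5 replicate 3 was at 346 CPM (next 73.0), from 4 cells, and Nodal in Foxa2-negative cells of E7.5 replicate 6 at 35.6 CPM (next 13.7). Lefty2 in Foxa2-positive cells of E7.5 replicate 12 was at 52.0 CPM (next 21.2), and in visceral endoderm marker cells of E6.75 replicate 2_9 at 17.4 CPM (others 0, so that ties alone set the flag).

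Differences between the stages in the effect of detection passed the edgeR test for Tdgf1 with Eomes (1.82, adjusted p = 0.0414), Lefty2 with T (2.05, adjusted p = 0.0307), Nodal with Foxa2 (2.14, adjusted p = 0.0147) and Lefty2 with Foxa2 (−2.31, adjusted p = 0.00391), on the log2 scale.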

How the results depend on the processing

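Of 35 member differences called, 15 were called in every alternative that tested them: the 7 between stages, Lefty2 with T, Mesp1 and Foxa2 and Tdgf1 with Eomes at E7.5, and Lefty1, Lefty2, Tdgf1 and Gdf3 in visceral endoderm marker cells. No result changed direction past the threshold. Both arms came from the same library, so the library was the replicate block. Counts of members called follow, and where no value says more the cause was not tested. With no replicate block, the counts were 0 for the stage difference with Eomes (main 1), 0 for T at E6.75 (3), 0 for its stage difference (1), 0 and 1 for Mesp1 at E6.75 (1) and E7.5 (4), 1 for Foxa2 at E7.5 (2) and 0 for its stage difference (2), and 0 and 1 for Nodal at E6.75 (1) and E7.5 (2). Cells thinned to 2000 transcripts left 1 to 3 members testable: 2 of 3 between stages (7), 1 and 0 for Eomes at E7.5 (2) and its stage difference (1), 1, 0 and 0 for T, 0 and 1 for Mesp1, 0 for Foxa2 at both stages and their difference, 0 for Nodal at E7.5, and 1 of 2 in visceral endoderm marker cells (6). With DESeq2 the counts were 1 and 0 for Eomes at E7.5 and the stage difference, 0 and 4 for T, 0 for Mesp1 at E6.75, 0 and 1 for Foxa2 at E6.75 and the stage difference, and 0 and 4 for Nodal. Numbers of all genes called by DESeq2 are not given beside these. With no filter on low counts they were 3 for Eomes at E6.75, 5 for T at E6.75 and 2 for its stage difference, 2 and 1 for Mesp1 at E6.75 and its stage difference, and 2, 5 and 1 for Nodal. Over all genes, the number called with no filter rose as well, in the same order. It went from 2 to 80 for Eomes, from 184 to 407 and 42 to 185 for T, and from 104 to 261 and 30 to 114 for Mesp1. For Nodal it went from 112 to 277, from 270 to 597 and from 26 to 174. With each stage fitted alone the counts of members were 2 and 1 for Eomes, 5 and 1 for T, 2 for Mesp1 at E6.75, 2 and 1 for Foxa2, and 2 for Nodal at E6.75. In the E6.75 libraries whose label begins with 2, they were 0 for the stage differences with Eomes and T, 0 and 1 for Foxa2 at E6.75 and the stage difference, and 0 for Nodal at E6.75. With at least 5 cells per arm they were 0 for the stage differences with T and Foxa2 and 2 for Nodal at E6.75. With positive cells holding at least 2 transcripts they were 1 for the stage difference with Foxa2, and 2 and 1 for Nodal at E6.75 and its stage difference. Cells of at least 10000 transcripts gave 0 for the stage difference with Eomes. Without visceral endoderm and extraembryonic ectoderm marker cells, the counts were 0 for Foxa2 at E6.75 and 1 for the stage difference with Nodal. Leaving out 1 library gave 0 to 1 for the stage differences with Eomes, T and Mesp1, 1 (without 2_14) to 4 for T at E6.75, 1 (without E7.5 replicate 3) to 4 for T at E7.5, 0 (without 2_13) to 2 for Mesp1 at E6.75, 2 (without E7.5 replicate 1) to 4 for Mesp1 at E7.5, 0 to 1 for Foxa2 at E6.75 (0 without 2_13 or 2_14, where Lefty1 did not pass the filter on low counts), 2 to 4 at E7.5 and 1 to 2 for its stage difference, and 1 to 2 and 0 (without E7.5 replicate 2) to 3 for Nodal at E6.75 and E7.5. Over all genes, the numbers called in the main analysis, on thinned cells and with no filter were 3870, 598 and 4668 between stages, 2848, 186 and 2992 in visceral endoderm marker cells, and at E7.5 100, 5 and 243 with Eomes, 231, 10 and 424 with T, 659, 26 and 944 with Mesp1, 398, 15 and 854 with Foxa2, and 270, 14 and 597 with Nodal. Thinning also left fewer genes tested. Where no number over all genes is given for a setting, its count of members says nothing about the members in particular. Stage, collection and library protocol cannot be told apart, a cell counted as negative may hold transcripts that were not sampled, and depth limits Lefty1 and Gdf3 most at E7.5, with 12 and 22 transcripts in all.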
